A study of Mus musculus with 9 samples.

Results

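The genes described here encode proteins and lipid enzymes of compact myelin in the mouse sciatic nerve. They are Mbp, Pmp22, Pmp2, Ncmap, Mal, Cd9, Fa2h and Ugt8a, named by a list, and 8 of the 25965 gene entries of the deposited count table belong to them. For 7 the entry carries the gene's name. Ncmap was found by its gene identifier, under the older name A330049M08Rik. RNA was sequenced from 3 libraries of each of 3 genotypes: PINCH1 mutants, PINCH2 mutants and control littermates. All mice had the C57BL/6 background. Each library combined 4 sciatic nerves, stripped of the epineurium, of 1 male with 1 female. One label field gives the age as postnatal day 15 and the protocol gives postnatal day 14. PINCH1 and PINCH2 are adaptor proteins of integrin adhesions, encoded by Lims1 and Lims2. The sources used here do not say how they were mutated, or in which cells.

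Compact myelin is the part of the Schwann cell sheath in which the membrane spirals are pressed together with almost no cytoplasm between them. Its stacking depends on adhesive membrane proteins, on basic proteins that bind the inner faces of the membrane, and on a lipid mixture rich in cholesterol and galactolipids. At this age the mouse sciatic nerve is still building its myelin. Changes in the dose or sequence of PMP22 cause inherited demyelinating neuropathies in humans.

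Library totals ran from 957828 to 1204964 counts. The targeted genes could not check the genotypes: Lims1 had 0 to 3 counts in PINCH1 mutants, 0 to 9 in PINCH2 mutants and 3 to 7 in controls, and Lims2 had 1 to 5, 1 to 5 and 1 to 9 counts in the same order. Gpr17, an entry read along with them, had 244 to 425, 67 to 151 and 211 to 380 counts in that order. The PINCH2 mutants thus lay below both other groups in counts under the name Gpr17, and the reason was not tested. After scaling, 4.81% of tested entries were lower without overlap in PINCH2 mutants than in controls. The limit on strand given below holds for Gpr17 too. Most counts, 88.4%, fell on the 24.7% of entries whose exons overlap exons of a gene on the opposite strand, here called a partner. The sources used here do not give the strand setting of the counting. Counts under a gene's name are therefore not shown to come from that gene's own strand, and this holds for all 8 entries. Among markers of myelinating Schwann cells outside the 8 genes, Prx had 281 to 571 counts in PINCH1 mutants, 505 to 603 in PINCH2 mutants and 484 to 823 in controls, Egr2 had 18 to 26, 12 to 47 and 17 to 53 counts in the same order, and Mag had 33 to 58, 39 to 63 and 36 to 48. These raw counts overlapped between the genotypes. Scaled for depth, Prx was lower without overlap in PINCH1 mutants than in controls, as were 7.49% of all tested entries. That was not so in PINCH2 mutants. Prx is an entry with a partner. Several compact myelin genes are also used by oligodendrocytes, and 7 markers of those cells summed to 1.89 to 4.98, 3.08 to 9.52 and 0 to 7.70 CPM (counts per 1000000 of the library total) in the same order, with Opalin, Olig1 and Olig2 at 0 in all libraries.

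All 8 entries passed the filter on low counts. Pmp22 and Mbp carried most of the signal, and together they made up 83.0% to 85.6% of the members' summed CPM in each library. By mean level among the 1946 tested entries without a partner, Pmp22 was at place 2, Mbp at place 6 and Mal at place 27, Cd9's level would have been at place 75, and Ugt8a, Pmp2, Ncmap and Fa2h were at places 85, 97, 147 and 208. The class without a partner includes entries not found in the GENCODE annotation, such as Pigb at place 4, whose partners are unknown. Cd9 is the member with a partner: 218 of its 2044 exon bases overlap exons of Gm26728. For Mbp and Ncmap an opposite-strand pseudogene (Rpl21-ps8 and Gm12991) lies within the gene's span but over none of its exons. Pmp2 shares exon bases with Gm37389 on its own strand, so reads there could be split.

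Scaled for depth by the TMM method and divided by exon length, the members spanned a wide range in controls. This order holds for counts as deposited, with the limit on strand given above. The length is the union of all annotated exons, 8469 bases for Mbp and 2354 for Pmp22, which may exceed that of the transcripts made. Before the division their control means were 3029 and 4638 CPM. Pmp22 stood at 1970.2 ± 122 CPM per kilobase (SD, n = 3), Mbp at 358 ± 58.8 and Mal at 239 ± 26.7. These 3 did not overlap each other or any other member in the control libraries. Pmp2 (107 ± 44.4) and Cd9 (102 ± 9.20) could not be ordered, since the Pmp2 libraries ran from 63.1 to 152 CPM per kilobase and the Cd9 libraries from 93.6 to 112. Ncmap (47.5 ± 10.2) and Ugt8a (39.9 ± 12.5) overlapped, as did Ugt8a and Fa2h (28.6 ± 8.98). In the mutants Pmp22, Mbp and Mal were again the first 3 by mean. They were at 1642, 234 and 194 CPM per kilobase in PINCH1 mutants and 1647, 245 and 205 in PINCH2 mutants. There, unlike in controls, Mbp and Mal overlapped. Mbp ran from 197 to 275 and Mal from 177 to 215 in PINCH1 mutants, and from 192 to 283 and 201 to 209 in PINCH2 mutants.

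Upstream sequence is shown for 3 members, chosen because they held a searched motif before a listed start. The windows of Mal and Cd9 held 0 matches and are not printed. Any part of these motifs in the members' levels was not tested. The 250 bases before each RefSeq start (build GRCm38.p6) were read for Pmp22, Mal, Cd9, Ncmap and Ugt8a, 9 windows in all since Pmp22 and Ncmap have several starts. They are not analysed here for Mbp, Pmp2 and Fa2h. Letters were searched on both strands. The motifs were ACAAAG with its variant form ACAATG, both cores bound by SOX proteins such as SOX10. The others were GTGGGNG, a core of sites for EGR proteins such as EGR2, the TATA box core TATAAA, and the promoter element CCAAT. The lines give Pmp22 at its first start (chr11:63128732-63128981, plus strand), Ncmap at its first listed start (chr4:135398228-135398477, minus strand) and Ugt8a (chr3:125938653-125938902, minus strand), 5′ to 3′ on the gene's strand. Capitals mark a match.
Pmp22: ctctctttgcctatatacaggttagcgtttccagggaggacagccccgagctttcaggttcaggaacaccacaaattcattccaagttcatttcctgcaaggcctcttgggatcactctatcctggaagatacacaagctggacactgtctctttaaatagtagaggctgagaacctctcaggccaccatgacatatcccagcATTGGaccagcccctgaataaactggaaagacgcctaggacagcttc
Ncmap: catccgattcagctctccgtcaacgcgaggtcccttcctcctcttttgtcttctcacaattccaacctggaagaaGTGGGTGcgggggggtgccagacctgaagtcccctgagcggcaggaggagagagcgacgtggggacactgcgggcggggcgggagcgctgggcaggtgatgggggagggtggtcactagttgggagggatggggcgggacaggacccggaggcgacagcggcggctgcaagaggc
Ugt8a: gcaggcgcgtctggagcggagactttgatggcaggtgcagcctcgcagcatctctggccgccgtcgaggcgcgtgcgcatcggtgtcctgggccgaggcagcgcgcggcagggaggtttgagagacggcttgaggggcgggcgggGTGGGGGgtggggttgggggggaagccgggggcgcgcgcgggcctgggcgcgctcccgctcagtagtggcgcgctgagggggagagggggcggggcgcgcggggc

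The match upstream of Pmp22 is CCAAT read on the other strand, starting at position -47 from the start. Those of Ncmap and Ugt8a are GTGGGNG, at positions -175 and -105. Bases just after the listed Ugt8a start were not found in an annotated transcript of the gene, so its position rests on the RefSeq start alone. The same held for Cd9 and for start 2 of Pmp22. In the 9 windows CCAAT was found in 3 and GTGGGNG in 2, against 33.9% and 28.1% of all 32851 windows in the RefSeq table. The SOX cores and the TATA box core were in 0 of the 9. Of all windows, 16.5% held ACAAAG, while 10.7% held its variant ACAATG and 12.4% held the core TATAAA. These are letter matches in short windows. They show no site in use. In each of the 3 windows printed there was 1 match, so none overlapped another.

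In PINCH1 mutants 7 of the 8 members had a log2 fold change below 0 against controls, and Pmp2 was the exception. The median was -0.38, beside -0.02 over all tested entries. In 5 members, Mbp, Pmp22, Mal, Cd9 and Ncmap, all 3 mutant libraries lay below all 3 control libraries, as was so for 7.49% of the 4738 tested entries and 11.3% of those without a partner. None of the 8 passed the edgeR quasi-likelihood test at an adjusted p of 0.05 over all entries, a threshold that 0.0633% of entries passed, and the members' adjusted p ran from 0.373 to 0.986. At an unadjusted p under 0.05 there were 4 members, Mbp, Cd9, Fa2h and Ncmap, against 4.09% of entries, and 6.22% of those without a partner, that were lower at that level. In the other direction 0 members had an unadjusted p under 0.05 and 0 lay above all controls, against 2.28% and 6.16% of entries. Below 0 were 52.2% of all entries and 64.1% of those without a partner.

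In PINCH2 mutants 8 of the 8 members had a log2 fold change below 0 against the same controls, with a median of -0.41 beside 0.00 over all entries. In Mbp, Pmp22, Mal and Cd9 all 3 mutant libraries lay below all 3 controls, as in 4.81% of all entries and 7.4% of those without a partner. The adjusted p was 0.999 for each member, where 0.0211% of entries passed. Unadjusted p under 0.05 was reached by Mbp, Fa2h and Ugt8a, against 2.6% of entries, and 4.73% of those without a partner, that were lower at that level. No member was higher at that level or lay above all controls, against 1.67% and 4.24% of entries. Of all entries 49.3% were below 0, and of those without a partner 60%. Both comparisons share the 3 controls. In bulk nerve, fewer myelinating cells and less RNA per cell cannot be told apart.

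**Figure D1:**
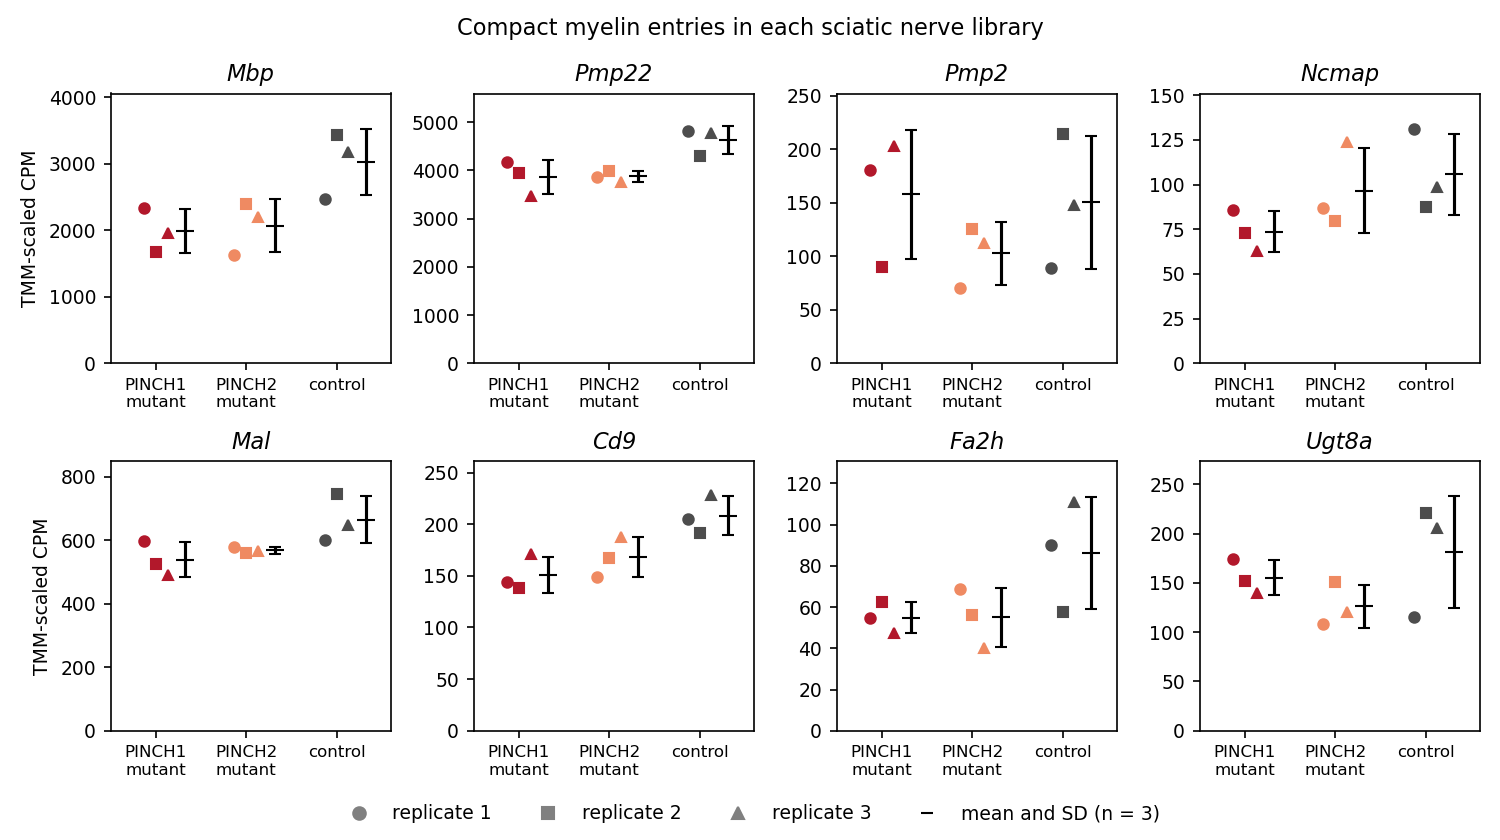
TMM-scaled CPM (y axis, from 0) of each compact myelin entry in each library, by genotype (x axis), with the mean and SD of 3 libraries beside the points. For Mbp, Pmp22, Mal and Cd9 the 6 mutant libraries lie below the 3 controls, while for Pmp2 the groups overlap.

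Mbp encodes myelin basic protein, which sits on the cytoplasmic face of the membrane and draws adjoining faces together. It lies on chromosome 18 (82475146 to 82585637, plus strand, GRCm38). Its level was 2333, 1670.4 and 1954 CPM in PINCH1 mutants, 1625, 2395 and 2193 CPM in PINCH2 mutants and 2474, 3435 and 3179 CPM in controls. All mutant libraries were under the lowest control, and replicate 2 of the PINCH2 mutants came nearest to it. The log2 fold change was -0.61 (SE 0.17, 95% interval -0.97 to -0.25) in PINCH1 mutants, a fitted ratio of 0.656, with an edgeR adjusted p of 0.373 and the 24th smallest p of all entries. In PINCH2 mutants it was -0.55 (SE 0.17, interval -0.91 to -0.19, adjusted p = 0.999), the 15th smallest p.

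Pmp22 encodes a tetraspan membrane protein of compact myelin (chromosome 11, 63128982 to 63159547, plus strand). It was at 4167, 3953 and 3475 CPM in PINCH1 mutants, 3873, 3994 and 3762 CPM in PINCH2 mutants and 4829, 4307 and 4777 CPM in controls. Neither mutant group reached the lowest control, which was replicate 2. Its log2 fold changes were alike in size, -0.26 in PINCH1 mutants (SE 0.13, interval -0.54 to 0.01, unadjusted p = 0.0587) and -0.26 in PINCH2 mutants (SE 0.13, interval -0.53 to 0.01, unadjusted p = 0.0626), from the edgeR fit across all entries.

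Pmp2 encodes the P2 protein, a small fatty acid-binding protein that also binds the cytoplasmic faces (chromosome 3, 10179851 to 10183885, minus strand). Its libraries held 181, 89.7 and 203 CPM in PINCH1 mutants, 69.9, 126 and 113 CPM in PINCH2 mutants and 88.9, 214 and 148 CPM in controls. It was the most variable member, with a control spread of 41.6% of the mean where counting alone would give 7.92%. The intervals were correspondingly wide: the log2 fold change was 0.07 in PINCH1 mutants (interval -0.68 to 0.83) and -0.55 in PINCH2 mutants (interval -1.31 to 0.22). Changes of Pmp2 within those intervals were neither shown nor excluded. Leaving out control replicate 1 gave -0.82 in PINCH2 mutants, leaving out control replicate 2 gave -0.20, and leaving out PINCH2 mutant replicate 1 gave -0.33.

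Ncmap encodes a small membrane protein of peripheral myelin whose full name, noncompact myelin-associated protein, places it outside the compact part under which it is listed here (chromosome 4, 135369576 to 135398227, minus strand). It stood at 85.7, 72.6 and 62.6 CPM in PINCH1 mutants, 86.8, 79.5 and 124 CPM in PINCH2 mutants and 131, 87.6 and 98.5 CPM in controls. PINCH1 mutants lay below all controls, with replicate 1 just under control replicate 2, while replicate 3 of the PINCH2 mutants lay among the controls. The log2 fold change was -0.52 (SE 0.24, interval -1.03 to -0.01) in PINCH1 mutants and -0.13 (SE 0.24, interval -0.63 to 0.37) in PINCH2 mutants. Without control replicate 1 the PINCH1 value was -0.33.

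Mal encodes a proteolipid that travels with cholesterol- and glycolipid-rich membrane (chromosome 2, 127633226 to 127656695, minus strand). Its level was 598, 525 and 492 CPM in PINCH1 mutants, 580.2, 559.7 and 565 CPM in PINCH2 mutants and 599.5, 745 and 649.5 CPM in controls. The highest PINCH1 mutant library was barely under the lowest control, so the lack of overlap was marginal there. The log2 fold change was -0.30 (SE 0.15, interval -0.63 to 0.02) in PINCH1 mutants and -0.23 (SE 0.15, interval -0.55 to 0.10) in PINCH2 mutants. Leaving out control replicate 2 gave -0.14 in PINCH2 mutants.

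Cd9 encodes a tetraspanin, a membrane organiser that associates with integrins (chromosome 6, 125460266 to 125494791, minus strand). It was counted at 144, 138 and 171 CPM in PINCH1 mutants, 149, 167 and 188 CPM in PINCH2 mutants and 205, 191 and 228 CPM in controls. Neither mutant group reached the lowest control. The log2 fold change was -0.46 (SE 0.18, interval -0.84 to -0.08, unadjusted p = 0.0204) in PINCH1 mutants and -0.31 (SE 0.18, interval -0.69 to 0.07, unadjusted p = 0.107) in PINCH2 mutants, from edgeR.

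The other members make the lipids. Fa2h encodes fatty acid 2-hydroxylase, which adds the hydroxyl group to fatty acids of myelin galactolipids (chromosome 8, 111345135 to 111393824, minus strand). Its libraries were at 54.7, 62.4 and 47.6 CPM in PINCH1 mutants, 68.8, 56.1 and 40.2 CPM in PINCH2 mutants and 89.9, 57.5 and 111 CPM in controls. Control replicate 2 fell among the mutants, and the other 2 controls were above them all. Fa2h had the lowest fitted ratios of the 8 members, 0.635 (interval 0.422 to 0.956) in PINCH1 mutants and 0.638 (interval 0.424 to 0.961) in PINCH2 mutants. Its log2 fold changes of -0.65 in each mutant were -0.43 and -0.42 without control replicate 3. At 40 to 124 counts per library it was also the member with the least depth.

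Ugt8a encodes the ceramide galactosyltransferase that makes galactosylceramide, a main myelin galactolipid (chromosome 3, 125865359 to 125938550, minus strand). It had 174, 152 and 139 CPM in PINCH1 mutants, 108, 151 and 121 CPM in PINCH2 mutants and 116, 221 and 206 CPM in controls. Control replicate 1 was lower than all 3 PINCH1 mutant libraries, while the other controls were higher than all 6 mutant libraries. The log2 fold change was -0.22 (SE 0.23, interval -0.69 to 0.25) in PINCH1 mutants and -0.52 (SE 0.23, interval -0.99 to -0.04) in PINCH2 mutants. The PINCH1 value rested on single libraries: it was -0.45 without control replicate 1, -0.05 without control replicate 2, -0.12 without control replicate 3 and -0.14 without PINCH1 mutant replicate 3, and -0.04 with the separate scaling of entries described further on.

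**Figure D2:**
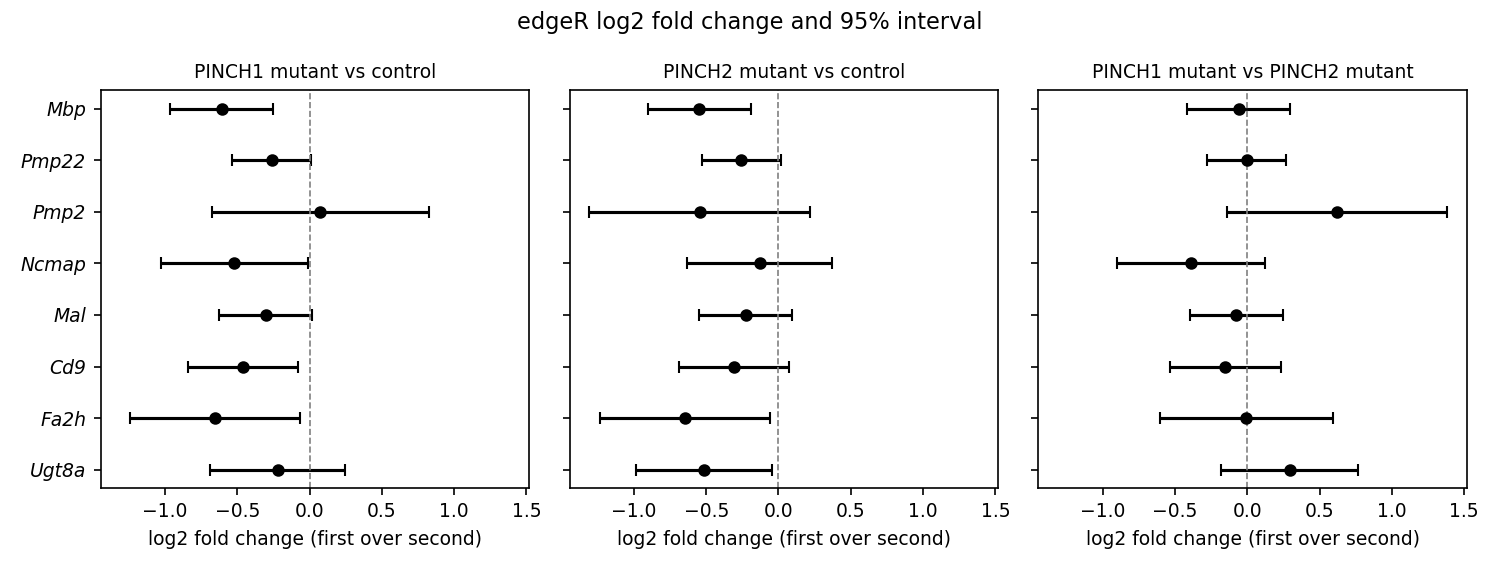
Fitted log2 fold change (x axis, first-named group over second) of each member with its 95% interval, for the 3 comparisons. Intervals lie below 0 for Mbp, Ncmap, Cd9 and Fa2h in PINCH1 mutants and for Mbp, Fa2h and Ugt8a in PINCH2 mutants, and for 0 members between the mutants.

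The scaling bears on how many members separate. Entries without a partner as a class were lower in the mutants, with a median log2 fold change of -0.17 in PINCH1 mutants and -0.12 in PINCH2 mutants. They received 9.64% to 12.1% of the counts in PINCH1 mutant libraries, 11.0% to 11.7% in PINCH2 mutants and 11.0% to 13.7% in controls. Their part in the result was not tested beyond rescaling. With entries with and without a partner scaled separately, 2 members, Mbp and Cd9, kept 3 mutant libraries below 3 controls in each comparison, where 6.42% of entries did so in PINCH1 mutants and 4.26% in PINCH2 mutants.

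On that scale Mbp was at 2248, 1925 and 2055 CPM in PINCH1 mutants, 1723, 2443 and 2135 CPM in PINCH2 mutants and 2512, 3202 and 2731 CPM in controls. The log2 fold change of Mbp was then -0.44 in PINCH1 mutants and -0.42 in PINCH2 mutants. That of Pmp22 was -0.09 and -0.14, and that of Mal -0.13 and -0.10. Both Pmp22 and Mal overlapped controls on this scale. The members' medians were -0.25 and -0.36. In PINCH1 mutants Ncmap and Fa2h no longer had an unadjusted edgeR p under 0.05 (0.154 and 0.120). In PINCH2 mutants Fa2h and Ugt8a no longer had one (0.0936 and 0.0929). Cd9 is scaled with the partnered class, and its log2 fold changes were -0.50 and -0.34.

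Relative to the counts on entries without a partner, a scale added after the data were seen, Mbp lay below all controls in PINCH1 mutants (15941 to 20053 against 20882 to 28310 per 1000000 in controls). It overlapped them in PINCH2 mutants, which reached 21274. On this scale 1 of the 7 members without a partner was lower without overlap in PINCH1 mutants and 0 in PINCH2 mutants, against 7.09% and 5.29% of tested entries without a partner and 4.47% and 3.21% of all. Cd9 has a partner and is no part of that total, so its value is a ratio and not a share. That ratio was lower in all mutant libraries (1239 to 1476 per 1000000 in PINCH1 mutants, 1311 to 1517 in PINCH2 mutants and 1577 to 1728 in controls). The 7 members without a partner together took 5.50% to 6.53% of those counts in PINCH1 mutants, 5.58% to 6.54% in PINCH2 mutants and 6.78% to 7.47% in controls. The difference in that share was not tested, as the members were chosen with results known.

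**Figure D3:**
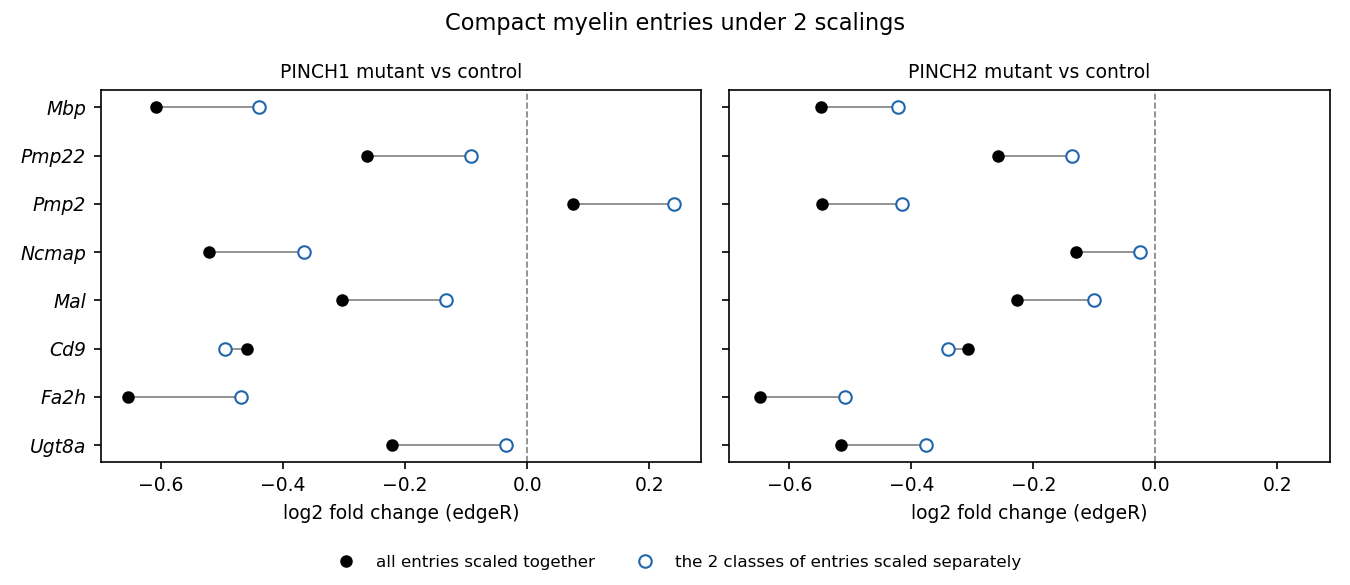
Fitted log2 fold change (x axis) of each member against controls with all entries scaled together (filled) and with entries with and without a partner scaled separately (open). The 7 members without a partner move upward, Pmp22 to -0.09 in PINCH1 mutants, while Cd9 moves slightly down.

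**Figure D4:**
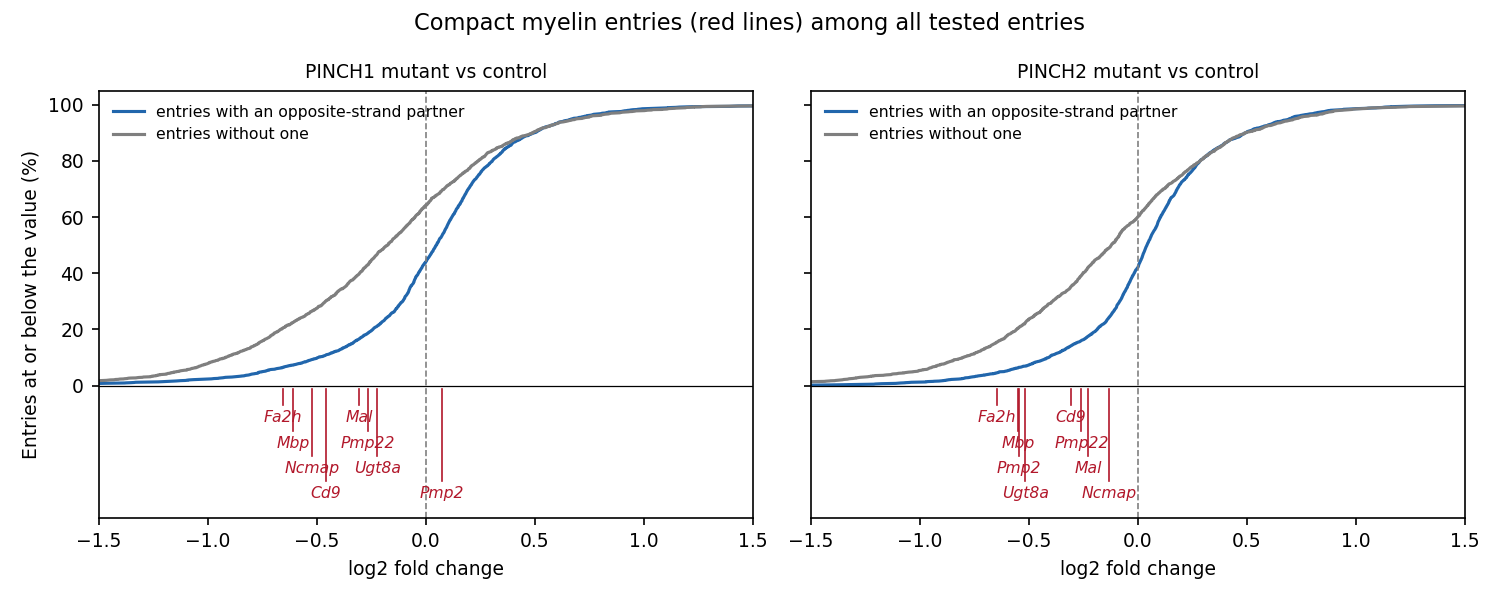
Cumulative share of tested entries (y axis, %) by log2 fold change (x axis, shown from -1.5 to 1.5) in PINCH1 and PINCH2 mutants against controls, for entries with and without an opposite-strand partner. Red lines mark the members, whose medians of -0.38 and -0.41 lie below the medians of entries without a partner, -0.17 and -0.12.

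The direct comparison of PINCH1 with PINCH2 mutants asks whether the members differ between the genotypes. None passed with edgeR (adjusted p from 0.888 to 0.9997, where 0.0844% of entries passed), and 0 had an unadjusted p under 0.05, against 3.44% of entries lower and 2.91% higher at that level. None separated without overlap, against 5.57% of entries as lower and 5.42% as higher. Of entries without a partner, 5.45% separated as lower and 3.49% were lower at an unadjusted p under 0.05. A log2 fold change below 0 was found for 6 of the 8, beside 52.6% of all entries and 55% of those without a partner, but the count was 4 with RLE or upper-quartile scaling. The differences of Pmp22 and Fa2h were -0.00 and -0.01 and changed sign with the scaling. For Pmp22 the interval was -0.28 to 0.27, which is a ratio of 0.825 to 1.21.

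Pmp2 stood at 158 ± 60.0 CPM in PINCH1 mutants and 103 ± 29.1 CPM in PINCH2 mutants (SD, n = 3 each). Its log2 fold change was 0.62 (SE 0.35, interval -0.14 to 1.38), and PINCH1 mutant replicate 2 lay among the PINCH2 mutants. Ugt8a was at 0.29 (interval -0.18 to 0.77) and Ncmap at -0.39 (interval -0.90 to 0.12). These intervals are wide, and equal levels in the mutants are not shown. With 1 library left out, Pmp2 ran from 0.40 to 0.91, Ncmap from -0.51 to -0.18 and Ugt8a from 0.19 to 0.46.

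Members varied among libraries of the same genotype in different ways. Pmp22 varied little, with an SD of 355 CPM in PINCH1 mutants, 116 CPM in PINCH2 mutants and 288 CPM in controls around means of 3865, 3876 and 4638 CPM. For Mbp the SD was 16.7% of the mean in PINCH1 mutants, 19.3% in PINCH2 mutants and 16.4% in controls, where counting alone would give 2.17%, 2.14% and 1.77%. For Fa2h the SD of 13.5% in PINCH1 mutants was about that of counting, 13.2%.

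Mbp, Pmp2 and Ugt8a were low together in PINCH2 mutant replicate 1, at -0.33, -0.50 and -0.21 from the mean log2 CPM of their genotype, and in control replicate 1, at -0.28, -0.66 and -0.58. Fa2h was above its group mean in both of those libraries, at 0.35 and 0.11. Pmp22 stayed within 0.15 of its group mean in every library. Control replicate 1 also had the smallest share of counts on entries without a partner among the controls, 11.0%, and the part of that share in these values was not tested. The ratio of Mbp to Pmp22 by CPM was 0.423 to 0.562 in PINCH1 mutants, 0.420 to 0.600 in PINCH2 mutants and 0.512 to 0.798 in controls, and all groups overlapped.

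**Figure D5:**
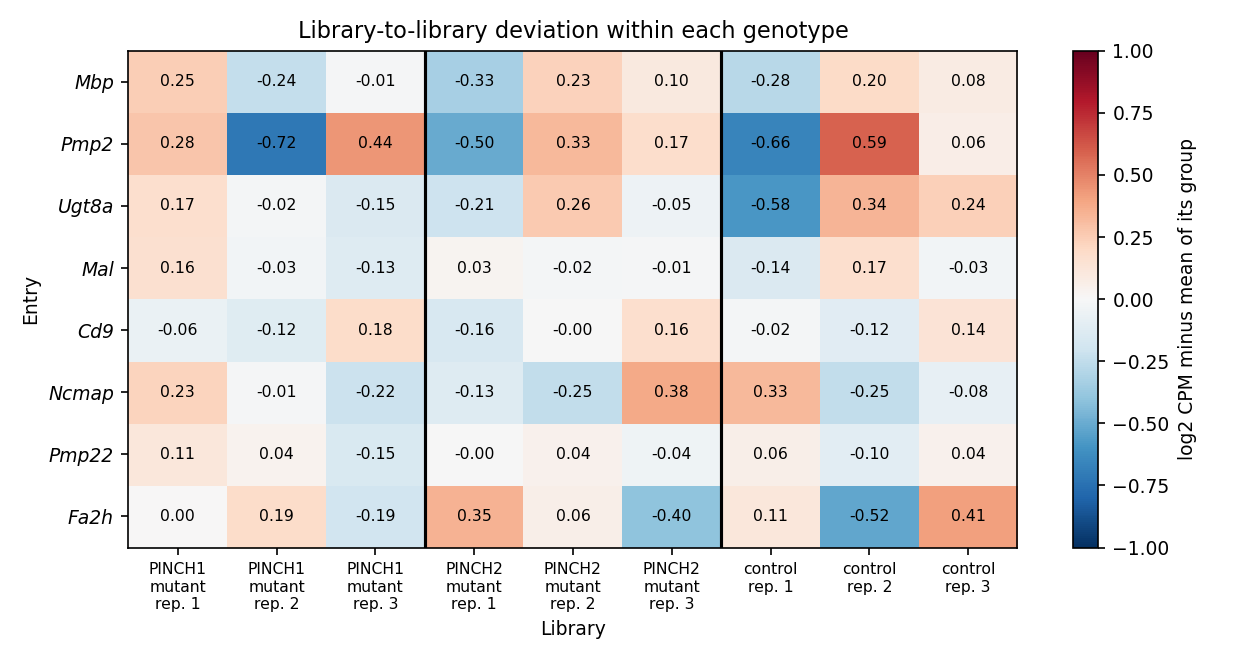
Deviation of each member (rows) in each library (columns, grouped by genotype) from the mean log2 CPM of its genotype, as colour and printed value. Pmp2 ranges from -0.72 to 0.59, and Pmp22 from -0.15 to 0.11.

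The entries whose levels followed Mbp most closely over the 9 libraries were Tspan17, Sparc and Dynlt3 (Pearson correlations of log2 CPM 0.94, 0.94 and 0.94), out of 2679 entries with a mean of at least 20 CPM. For Pmp22 they were Plekhb1, Ptms and Hnrnpk (0.91, 0.90 and 0.87). These describe 9 libraries that share scaling and genotype groups, and the highest of so many values are large by selection.

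Other myelin genes were read from 3 lists. Of 20 genes for myelin membrane and junction proteins, 18 were tested, and 15 had a log2 fold change below 0 in PINCH1 mutants and 12 in PINCH2 mutants, with medians of -0.25 and -0.16. Below 0 were 52.2% and 49.3% of all entries, and 64.1% and 60% of those without a partner. With edgeR 0 passed in either direction over all entries, and 6 in PINCH1 mutants and 1 in PINCH2 mutants were lower at an unadjusted p under 0.05, beside 4.09% and 2.6% of all entries and 6.22% and 4.73% of those without a partner. The PINCH2 count is near that background. Nfasc, for the neurofascin adhesion proteins, was at -1.55 (SE 0.43) in PINCH1 mutants on 7 to 22 counts, against 24 to 50 in controls. Gjb1, for connexin 32, had 3 counts in every PINCH1 mutant library, 11 to 22 in PINCH2 mutants and 7 to 19 in controls.

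Of 26 genes for synthesis and turnover of myelin lipids, 17 were tested, and 11 were below 0 in each mutant, with medians of -0.30 and -0.18. With edgeR 0 passed, and 1 in PINCH1 and 2 in PINCH2 mutants were lower at an unadjusted p under 0.05, beside the same 4.09% and 2.6% of all entries. The share of the list below 0 was near the 64.1% and 60% of entries without a partner. The desaturase gene Fads1 had 36.6 ± 8.81 CPM in PINCH1 mutants, 42.3 ± 11.4 CPM in PINCH2 mutants and 72.1 ± 9.39 CPM in controls. No mutant library of Fads1 reached a control, as was so for 7.49% of all entries in PINCH1 mutants and 4.81% in PINCH2 mutants. Scd2, another desaturase gene, was at -0.32 (SE 0.17) and -0.26 (SE 0.17). Of 14 regulators and receptors of myelination, 13 were tested, and 9 were below 0 in each mutant, with medians of -0.10 and -0.20. Beside them, 64.1% and 60% of entries without a partner were below 0. With edgeR 0 passed, and 1 in PINCH1 and 0 in PINCH2 mutants were lower at an unadjusted p under 0.05, near the 4.09% and 2.6% of all entries. The most abundant regulator entries, Zeb2 and Nab2, both with partners, were at 0.14 (SE 0.18) and 0.09 (SE 0.19) in PINCH1 mutants and -0.10 (SE 0.18) and 0.10 (SE 0.19) in PINCH2 mutants. Nab1, for a cofactor of EGR proteins, had the smallest p in PINCH1 mutants, at -1.08 (SE 0.47). Among them Sox10, for a transcription factor needed throughout the Schwann cell lineage, was at -0.66 (SE 0.33) in PINCH1 mutants, and Egr2, for the factor that drives myelin genes, was at -0.81 (SE 0.46) in PINCH1 mutants and -0.42 (SE 0.45) in PINCH2 mutants, on 12 to 53 counts.

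Markers of other cells stood beside these values as follows. The 6 fibroblast markers summed to 780 to 934 CPM in PINCH1 mutants, 545 to 911 CPM in PINCH2 mutants and 623 to 1374 CPM in controls. The 8 markers of immature, repair or nonmyelinating Schwann cells summed to 28.4 to 57.3, 45.7 to 65.6 and 34.5 to 159 CPM in the same order, with Gfap at 0 in PINCH1 mutants. With edgeR, 2 of the 3 tested, Cdh2 and Scn7a, were lower in PINCH1 mutants at an unadjusted p under 0.05. Of all entries 4.09% were, and of those without a partner 6.22%. Cdh2 had 0 to 1, 7 to 15 and 1 to 19 counts and Scn7a 7 to 38, 30 to 34 and 25 to 118, so both overlapped controls. Ngfr, also tested, had 8 to 11, 5 to 19 and 0 to 18 counts. The 7 macrophage markers summed to 553 to 604, 474 to 634 and 557 to 688 CPM, with Aif1 at 0 in all 9 libraries. Nearly all of that sum was Csf1r, an entry with a partner, at 545 to 704, 454 to 661 and 601 to 699 counts. Cx3cr1, also with a partner, had 11 to 24, 5 to 17 and 1 to 9 counts. The 5 perineurial markers summed to 44.9 to 50.2, 43.1 to 64.7 and 52.6 to 73.2 CPM, with Lypd2 at 0 in all libraries. Their sum was lower without overlap in PINCH1 mutants, but 0 of the 3 tested perineurial markers were so alone. Single entries lower without overlap made up 7.49% of those tested. Among the tested perineurial markers, Slc2a1 and Itgb4 have partners. The 4 keratinocyte markers were at 63.1 to 69.9, 28.6 to 61.4 and 9.57 to 29.1 CPM, all of it from the entry Krt10, which has a partner, since Krt5, Krt14 and Krt1 were at 0. That sum was higher in every PINCH1 mutant library than in any control, where 6.16% of all tested entries were higher without overlap. The part of these cells in the members' values was not tested.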

How the data were processed

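The submitters' processing notes name HISAT2 2.0.5, cutadapt 1.9.1, Trim Galore 0.4.2 and the build GRCm38. No counting tool, strand setting or annotation release is named there. The authors' deposited table holds whole-number read counts per gene entry, unscaled, and all of its sample columns were used. The members and lists were chosen with earlier results of these data known.

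Entries were matched by identifier to GENCODE M21 (96.4% found) for exon length, and opposite-strand exon overlap was found with bedtools 2.31.1. Unmatched entries were counted as having no partner. Differential counts were tested with edgeR 4.0.16 in R 4.3.3: a quasi-likelihood test, dispersion estimated robustly, after filterByExpr (4738 entries kept) and TMM scaling. The model held the 9 libraries and had no term but genotype. P-values were adjusted by Benjamini-Hochberg across those entries, and calls were made at 0.05. The SE follows from the fold change and its F statistic, and intervals use the fit's degrees of freedom. The procedure was tested on simulated data. Replicates were pools of nerves, so p-values measure the spread between pools. Counting error was taken as the square root of the mean count.

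The members were all named, the 3 entries most like Pmp22 and Mbp were taken by correlation, and from each list entries were chosen by smallest p or highest mean CPM. Entries named in the marker lists and in the ranking by level were chosen after their values were seen. Upstream sequences are from RefSeq (GRCm38.p6). Alternatives were scaling by RLE or by the upper quartile, TMM leaving out the top 20 entries by abundance, separate scaling of entries with and without a partner, DESeq2 1.42.0, limma-voom (limma 3.58.1), no filter, at least 1 CPM in at least 3 libraries, the 6 libraries compared alone, replicate numbers entered as a block, a threshold of 0.01, and each library left out in turn. One gene of the other lists is not reported here.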

Additional observations from a re-analysis of the deposited data

How the results depend on the processing

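Across 456 refits of the 8 members under 19 alternatives in each comparison, 430 kept their direction and their side of the threshold. Mbp in PINCH1 mutants passed once, with at least 1 CPM in at least 3 libraries (adjusted p = 0.0466), and its adjusted p ran up to 0.985 elsewhere. Against controls, log2 fold changes that changed sign did so when 1 library was left out: Pmp2 in PINCH1 mutants (-0.19 to 0.42, below 0 without control replicate 1, PINCH1 mutant replicate 1 or PINCH1 mutant replicate 3) and Ncmap in PINCH2 mutants (-0.34 to 0.044, above 0 without control replicate 1). Between the mutants, 21 refits changed sign. With 1 library left out, Mbp ran from -0.21 to 0.074, Pmp22 from -0.060 to 0.067 and Fa2h from -0.19 to 0.18. Pmp22 was at 0.0055 with RLE, 0.026 with upper-quartile scaling, 0.046 with separate scaling, 0.0053 with DESeq2 and 0.0037 with 6 libraries. Fa2h was at 0.0025, 0.030, 0.039, 0.0023 and 0.00047 in the same settings, at 0.010 with limma-voom and at 0.0011 with the replicate block. The cause was not tested.

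The members lower without overlap numbered 5 in PINCH1 and 4 in PINCH2 mutants, against 2 and 2 with separate scaling, and 2 and 1 relative to the counts on entries without a partner, or 1 and 0 without Cd9, which is no part of that total. Over all entries, those passing numbered 3 in PINCH1 mutants, 1 in PINCH2 mutants and 4 between the mutants. They were 6, 1 and 10 with DESeq2, 1 in PINCH1 mutants with limma-voom, 15 and 20 (PINCH1 mutants, between mutants) with no filter, 16 and 27 with at least 1 CPM in at least 3 libraries, 1, 0 and 8 with the 6 libraries alone, and 1 and 0 (PINCH1 and PINCH2 mutants) at an adjusted p of 0.01. With 1 library left out they ran from 1 to 9, 0 to 1 and 3 to 9, with 9 in PINCH1 mutants without control replicate 2. With the replicate block they were 5 in PINCH1 mutants, 0 in PINCH2 mutants and 6 between them. Pairing of the libraries by replicate number was neither shown nor excluded. Correlations of same-numbered deviations were -0.11, 0.10 and 0.07 in PINCH1 mutants and controls, and 0.13, 0.25 and -0.02 in PINCH2 mutants and controls. Between the mutants they were 0.05, 0.06 and 0.01. Some mutant libraries correlated best with the control of their own number, and others did not. Members at an unadjusted p under 0.05 numbered 4 and 3, against 2 and 1 with separate scaling, and 1 and 1 without control replicate 3. The block brought no member past the threshold. Depth limits Fa2h most, at 40 to 124 counts per library.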
